A study of Mus musculus with 36 samples.

Results

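The RNA of unoperated knee cartilage from mice killed 12 weeks after surgery on the opposite knee was compared with that from mice killed 4 weeks after it. The 6 libraries, 3 at each time, are those whose labels give the non-operated left leg, out of 36 samples in the series, 12 of them RNA libraries. Male C57BL/6J mice had their right knee destabilized at 12 weeks of age by cutting the ligament that anchors the medial meniscus (DMM, a model of post-traumatic osteoarthritis), and the left knee of the same animals was left intact and served as the control. Cartilage was dissected from the tibial and femoral surfaces, and the study's methods state that tissue from 3 knees was pooled for a sample. The control legs therefore belong to operated animals, and the 12-week mice were also older than the 4-week mice when killed. Age, time since the operation on the other knee, and any difference in collection or library preparation between the times cannot be told apart in this design, and p-values measure only the spread between the 3 pooled samples of each time.

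Articular cartilage is made and kept by chondrocytes, which hold a matrix of type II collagen and aggrecan and, at the joint surface, secrete lubricin. In young adult mice the growth of the joint is ending. Signals of the IGF, BMP, FGF and WNT families, which regulate chondrocyte division and hypertrophy during growth, are known to decline as the tissue matures. Below the cartilage lies bone with its marrow, in which neutrophil and erythroid precursors divide throughout life, and muscle, tendon and synovium lie around the joint.

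The libraries held between 35284404 and 62737656 counts over all transcript rows, and 24948353 to 45306726 in the 1 row kept per gene. 15605 genes passed the filter on low counts. On the first principal component, which held 59.4% of the variance, the 4-week libraries lay at -86.1, -45.3 and 6.26 and the 12-week libraries at 75.3, 27.5 and 22.4, so that replicate 3 of the 4-week group lay nearer the 12-week libraries than its own group. Its time was taken as labelled, and whether that label is right was not tested. For some of the gene lists the counts without that library are also given. It was picked from the data, and without it the groups lie further apart, with 2758 genes called. Values without it therefore give no separate support. Levels are counts scaled to library size with TMM factors (CPM), listed for replicates 1, 2 and 3 of each time, and differences are log2 values of 12 weeks minus 4 weeks from edgeR's quasi-likelihood test.

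The defining genes of chondrocytes were detected in all 6 libraries, at levels that ranged widely. Col2a1, the type II collagen chain, measured 1453, 1270.4 and 1009 CPM at 4 weeks and 959, 1355 and 500.5 CPM at 12 weeks. Acan, which encodes the core protein aggrecan, was at 788, 686 and 401 CPM at 4 weeks and 520.3, 1013 and 549 CPM at 12 weeks. Sox9, the transcription factor that sets chondrocyte identity, was at 263, 209.8 and 112 CPM at 4 weeks and 182, 389 and 142 CPM at 12 weeks. For all 3 genes the groups overlapped. Comp, Hapln1 and Col11a1, all matrix components, likewise overlapped, with log2 differences of -0.79, -0.61 and -0.19. Col9a1 and Matn3, both most abundant in growing cartilage, were low and uneven, since Matn3 was at 1.91, 2.903 and 36.5 CPM at 4 weeks and 0.993, 5.37 and 0.458 CPM at 12 weeks and Col9a1 at 15.8, 10.9 and 40.7 CPM at 4 weeks and 3.94, 16.03 and 3.17 CPM at 12 weeks. For both genes replicate 3 of the 4-week group was the highest of the 6.

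**Figure D1:**
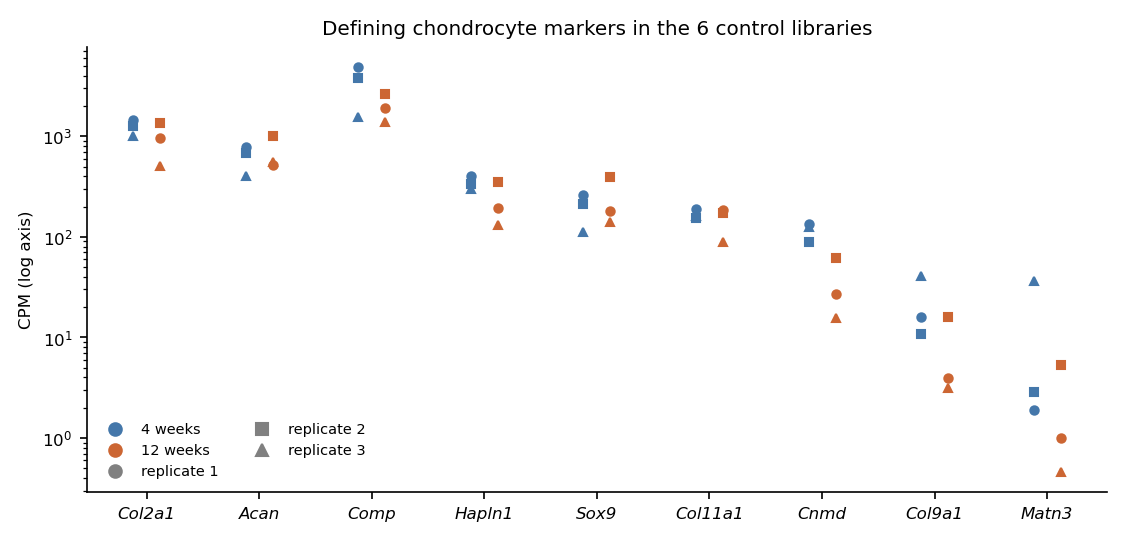
Each point is 1 control library, with its CPM on a log axis, for the 9 defining chondrocyte genes, blue for 4 weeks and orange for 12 weeks, with the shape giving the replicate number. Cnmd is the gene of the 9 whose groups do not overlap, from 15.7 to 61.2 CPM at 12 weeks against 89.1 to 134 CPM at 4 weeks.

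Cnmd, which encodes chondromodulin, a chondrocyte protein known to keep blood vessels out of cartilage, was the defining gene without overlap. It measured 134, 89.1 and 125 CPM in the 4-week libraries and 26.8, 61.2 and 15.7 CPM in the 12-week libraries, so that every 12-week library was below every 4-week library. Its log2 difference was -1.74 ± 0.485 (SE), with an adjusted p of 0.127.

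Across all genes, edgeR called 0 genes at an adjusted p under 0.05 (percent called: 0), the smallest adjusted p being 0.0645. There were 3269 genes (20.9%) with an unadjusted p under 0.05, of which 1652 (10.6%) were higher and 1617 (10.4%) lower at 12 weeks. In 2332 genes (14.9%) every 12-week library was above every 4-week library, and in 1870 (12.0%) every one was below. DESeq2 called 1912 genes (12.0% of those it tested), 889 higher (5.56%) and 1023 lower (6.40%), limma with voom weights called 0, and an edgeR fit of all 12 RNA libraries, which estimates the spread from control and DMM samples together, called 920 (5.76%, 389 higher and 531 lower). Without replicate 3 of the 4-week group, edgeR called 2758 genes, 1432 higher and 1326 lower. The count of calls thus rested on the choice of tool and on 1 library. Over all genes, 48.6% had a log2 difference above 0 and 51.4% below 0. The genes below are given by their values in every library.

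The genes with the smallest p-values were separated between the times in both directions, which their choice from these same 6 libraries favours. The 10 smallest in each direction were taken among genes with a mean of at least 10 CPM. Their adjusted p-values in edgeR were 0.0645 to 0.0657, just above the threshold. All 20 were below 0.05 in DESeq2, in the fit of all 12 libraries and without replicate 3 of the 4-week group. Those fits hold the libraries that the genes were chosen from, so they give no separate support. Fmnl3, a formin that assembles actin filaments, measured 26.3, 32.2 and 25.6 CPM in the 4-week libraries and 139.7, 115 and 110.1 CPM in the 12-week libraries, a log2 difference of 2.12 ± 0.165 (SE). Lmnb1, which encodes lamin B1 of the nuclear lamina, was at 27.1, 25.5 and 19.5 CPM at 4 weeks and 65.004, 72.2 and 84.95 CPM at 12 weeks, with a difference of 1.62 ± 0.1804 (SE). Pi16, a marker of a subset of fibroblasts, was at 25.5, 29.7 and 26.2 CPM at 4 weeks and 81.8, 65.2 and 87.7 CPM at 12 weeks, with a difference of 1.53 ± 0.158 (SE). In all 3 genes every 12-week library was well above every 4-week library.

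Vars, the valyl-tRNA synthetase, was at 74.3, 100.3 and 116 CPM at 4 weeks and 268, 234 and 257 CPM at 12 weeks. Rsrp1, an arginine- and serine-rich protein, was the most abundant of the 10, at 247, 251 and 287 CPM at 4 weeks and 609, 641 and 587 CPM at 12 weeks. Vps37b, a subunit of the ESCRT-I complex that sorts membrane proteins, had the least spread of the 10 at 4 weeks, with 30.1, 29.7 and 30.5 CPM at 4 weeks and 59.7, 56.996 and 54.2 CPM at 12 weeks. The log2 differences of these 3 genes were 1.39, 1.23 and 0.92. Rexo1, Rgl2, which encodes an exchange factor for Ral GTPases, Cherp and Leng8 differed by 1.05, 1.12, 0.95 and 1.05 on the log2 scale.

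Igfbp3, a secreted protein that binds insulin-like growth factors and holds them away from their receptor, led the genes that were lower at 12 weeks. It measured 20.4, 21.5 and 22.2 CPM in the 4-week libraries and 6.66, 6.64 and 5.69 CPM in the 12-week libraries, a log2 difference of -1.75 ± 0.158 (SE). The 3 libraries of each time lay close together, including replicate 3 of the 4-week group, which lay apart in other respects. Tmed7, a cargo receptor of the early secretory pathway, was at 218, 222 and 141 CPM at 4 weeks and 34.2, 51.6 and 45.5 CPM at 12 weeks, with a difference of -2.15 ± 0.247 (SE). Cd151, a tetraspanin that associates with laminin-binding integrins, was at 64.9, 47.8 and 67.9 CPM at 4 weeks and 12.5, 16.3 and 14.2 CPM at 12 weeks, with a difference of -2.07 ± 0.194 (SE). In both genes every 12-week library was far below the lowest 4-week library.

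Otulin, which removes linear ubiquitin chains and is known to restrain inflammation, was at 42.7, 41.4 and 38.3 CPM at 4 weeks and 8.34, 9.82 and 13.1 CPM at 12 weeks. Ythdf1, a reader of N6-methyladenosine in mRNA, was at 74.1, 82.7 and 66.8 CPM at 4 weeks and 23.01, 27.7 and 29.5 CPM at 12 weeks. Jdp2, a repressor of the AP-1 family of transcription factors, was at 37.1, 35.004 and 27.2 CPM at 4 weeks and 11.9, 12.2 and 11.6 CPM at 12 weeks. In each of the 3 genes the groups were separated, with log2 differences of -1.97, -1.48 and -1.48. The kinase gene Mark3, the ubiquitin ligase gene Ube3c and Lrrc47 differed by -1.81, -1.33 and -1.30.

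**Figure D2:**
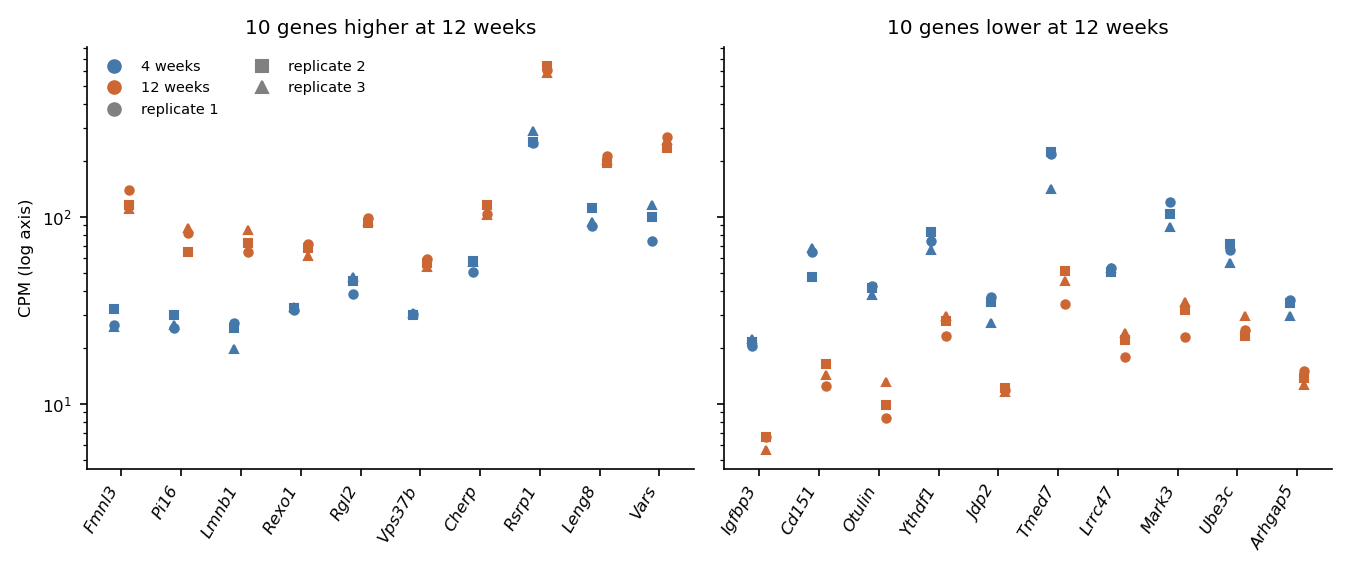
CPM on a log axis in each of the 6 control libraries for the 10 genes with the smallest p in each direction, blue for 4 weeks and orange for 12 weeks, with the shape giving the replicate number. In all 20 genes the 3 libraries of one time lie on one side of the 3 libraries of the other.

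The cartilage of the DMM knees, sampled at the same times, gave a second set of 6 libraries for the same 20 genes, with no library in common, although it came from the same animals and was collected at the same times. When those 6 libraries were fitted on their own, all 20 genes differed in the same direction between 12 and 4 weeks, and 19 of them had an unadjusted p under 0.05. Over all genes in both fits, 67.5% had the same direction. The exception was Lrrc47, at -0.59 in the DMM libraries. The differences in the DMM libraries were 2.64 for Fmnl3, 2.68 for Lmnb1, -1.34 for Igfbp3 and -1.75 for Cd151. Of the 3222 genes at an unadjusted p under 0.05 in the control libraries and present in both fits, 2169 (67.3%) had the same direction and an unadjusted p under 0.05 in the DMM libraries, and 11 (0.341%) the opposite direction at that level. Over all 15237 genes in both fits, these shares were 31.96% and 6.16%. The 2169 genes were 37.3% of the 5808 genes at that level in the DMM libraries. The share with the same direction and an unadjusted p under 0.05 was 79.6% for genes higher at 12 weeks and 54.7% for genes lower at 12 weeks.

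**Figure D3:**
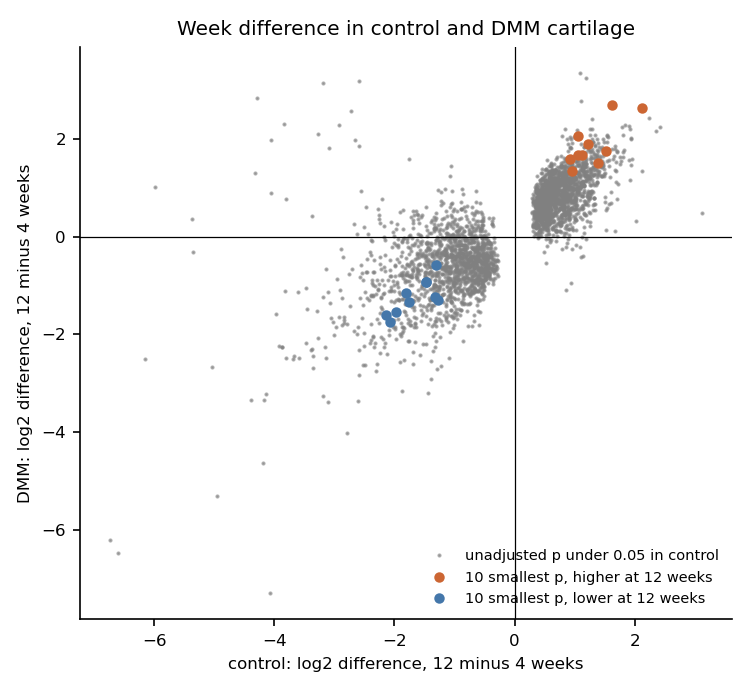
Each grey point is 1 of the 3222 genes with an unadjusted p under 0.05 in the control libraries, with its log2 difference between 12 and 4 weeks in control cartilage on the x axis and in DMM cartilage on the y axis; the 20 coloured points are the genes with the smallest p. Of the genes plotted, 2978 have the same direction on both axes (92.4%, against 67.5% of all genes), and the coloured points have the same sign on both axes.

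Most genes of the cartilage matrix had lower values at 12 weeks, mostly within the spread between replicates. Of the 21 cartilage matrix genes tested, 19 had a log2 difference below 0, the median being -0.79 against -0.0164 over all genes. The list's median was -0.50 without replicate 1 of the 4-week group and -1.35 without replicate 2 of the 12-week group. With the mean level of the neutrophil and erythroid markers as a covariate, the median was -0.0397, against -0.65 with the muscle covariate and -0.66 with the fibroblast and synovium one, and in the first of these fits Comp was at 0.25 and Cilp at 0.56, above 0. The neutrophil markers in that covariate themselves had a median difference of 1.04 between the times, so with 6 libraries its effect and that of the week cannot be fully told apart. No matrix gene was above in every library, against 14.9% of all genes. Below in every library were 3 of the 21, namely Cnmd, Epyc and Sparc, a share near the 12.0% of all genes. Epyc, a small proteoglycan of growing cartilage, was at 3.01, 4.33 and 8.71 CPM at 4 weeks and 0.397, 1.39 and 0.802 CPM at 12 weeks. Sparc, which encodes the collagen-binding protein osteonectin, was at 12568, 10168 and 8880.1 CPM at 4 weeks and 6223, 7638 and 3686 CPM at 12 weeks. The most abundant of the list, Chad, which encodes the collagen-binding protein chondroadherin, overlapped between the times at 28673, 21127 and 11267 CPM at 4 weeks and 9799.9, 16507 and 5589 CPM at 12 weeks. The summed level of the list was 71499, 56766 and 32422 CPM at 4 weeks and 31954, 49204 and 18914 CPM at 12 weeks, so replicate 3 of the 4-week group sat among the 12-week libraries and replicate 2 of the 12-week group near the 4-week ones.

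Genes of the superficial zone, the layer that faces the joint space, gave a median of -0.83, with 12 of 12 below 0 and 1 below in every library, against 12.0% of all genes. The median was -0.38 without replicate 1 of the 4-week group and -0.00642 with the fibroblast and synovium covariate. With the neutrophil and erythroid covariate the median turned to 0.20, with Prg4 at 0.66 and Cytl1 at 0.11, and without replicate 3 of the 4-week group edgeR called 5 of 12 lower, against 8.37% of all genes. Prg4, which encodes lubricin, was at 19022, 15592 and 9239 CPM at 4 weeks and 11478, 23059 and 7447 CPM at 12 weeks. Cilp was at 20323, 17545 and 7782 CPM at 4 weeks and 11227, 17946 and 6352 CPM at 12 weeks, and Cytl1, a small secreted protein of chondrocytes, at 28931, 20106 and 11241 CPM at 4 weeks and 10854, 18203 and 5902 CPM at 12 weeks. All 3 overlapped between the times. Htra4, a serine protease of the HTRA family, was the 1 member without overlap, at 534, 526 and 110.2 CPM at 4 weeks and 58.6, 81.3 and 73.7 CPM at 12 weeks. Replicate 3 of the 4-week group was nearer to the 12-week libraries than to the other 4-week libraries, and without it the log2 difference of Htra4 was -2.90, with an adjusted p of 0.00694.

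Of the 12 small leucine-rich proteoglycans, which organize collagen fibrils and bind growth factors, all had a difference below 0, with a median of -0.99, which was -0.11 with the neutrophil and erythroid covariate, where Dcn was at 0.19, and 0.0312 with the fibroblast and synovium covariate. 4 of them were below in every library, against 12.0% of all genes, namely Epyc, Ogn, Lum and Omd. Ogn, or osteoglycin, was at 110.3, 175 and 73.9 CPM at 4 weeks and 49.1, 52.1 and 41.6 CPM at 12 weeks. Lum, or lumican, was at 981, 1117 and 525 CPM at 4 weeks and 404, 433 and 431 CPM at 12 weeks. Omd, or osteomodulin, was at 602, 531 and 366 CPM at 4 weeks and 234, 307 and 137 CPM at 12 weeks. Dcn, which encodes decorin, was the most abundant after Chad, and overlapped at 12173, 14226 and 4808 CPM at 4 weeks and 6208, 8542 and 4299.9 CPM at 12 weeks. Without replicate 3 of the 4-week group, edgeR called 5 of 12 lower, against 8.37% of all genes.

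Enzymes that modify and trim collagen included several genes with separated groups. 7 of 25 were below in every library, against 12.0% of all genes, and 1 above, against 14.9%, with a median of -0.53, which was 0.000267 with the neutrophil and erythroid covariate. That median was -0.31 without replicate 1 of the 4-week group. It was -0.26 without replicate 3 of the 12-week group and -0.70 without replicate 2 of that group. P3h3, a prolyl 3-hydroxylase family member that acts on procollagen in the endoplasmic reticulum, was at 71.95, 60.5 and 23.5 CPM at 4 weeks and 7.38, 11.1 and 7.52 CPM at 12 weeks, a difference of -2.58 ± 0.435 (SE). Its relative P3h2 differed by -2.15 and Crtap, the partner of the prolyl 3-hydroxylase complex, by -1.07. Pcolce, which enhances removal of the procollagen C-propeptide, differed by -1.14. The 3 most abundant genes of this list, Serpinh1, Lox and P4ha2, overlapped, with differences of -0.39, -0.27 and -0.60. Of the 12 genes of fibrillar collagens and collagen 6, 10 had a difference below 0, with a median of -0.44, which was 0.19 with the neutrophil and erythroid covariate and 0.11 with the fibroblast and synovium one. The median was -0.21 without replicate 2 of the 4-week group and -0.72 without replicate 2 of the 12-week group. Among these 12 genes 1 was above in every library and 0 below, against 14.9% and 12.0% of all genes. Col1a1, the main collagen of bone, was at 1123, 3201 and 3727 CPM at 4 weeks and 11306, 7627 and 4952 CPM at 12 weeks and Col3a1, a collagen of loose connective tissue, at 1739.6, 2456 and 292 CPM at 4 weeks and 375, 371 and 702 CPM at 12 weeks. Col1a1 was higher in every 12-week library, whereas Col3a1 overlapped, as did Col1a2, with a difference of 1.01.

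Mef2c and Ibsp, genes of chondrocyte hypertrophy and mineralization, had separated groups, with log2 differences of -0.62 and -1.12. The lowest difference in the list of such genes was -1.74. Mef2c, a transcription factor that drives hypertrophy, was at 313, 243 and 230.1 CPM at 4 weeks and 174, 155 and 182 CPM at 12 weeks, and Ibsp, the bone sialoprotein, at 5729.6, 3659 and 3189.5 CPM at 4 weeks and 1948, 2323 and 1502 CPM at 12 weeks. Both were lower in every 12-week library. Col10a1, the collagen of hypertrophic chondrocytes, overlapped at 1474, 1215 and 747 CPM at 4 weeks and 619, 1495 and 676 CPM at 12 weeks, and Spp1, which encodes osteopontin, at 7052, 7477 and 6314 CPM at 4 weeks and 5976, 7872 and 5696 CPM at 12 weeks. Of the 18 genes, 3 were below in every library and 0 above, against 12.0% and 14.9% of all genes, with a median of -0.39, which was -0.12 without replicate 1 of the 4-week group, -0.17 without replicate 3 of the 12-week group and -0.10 with the neutrophil and erythroid covariate. Of the 16 chondrocyte regulators, 4 were below in every library and 2 above, against 12.0% and 14.9% of all genes. Their median was -0.43, against -0.22 without replicate 1 of the 4-week group, 0.12 with the neutrophil and erythroid covariate, -0.16 with the muscle one and -0.0336 with the fibroblast and synovium one. The lowest difference among them was that of Foxo1. Foxo1, a transcription factor of the autophagy and antioxidant programme of cartilage, was at 211, 181 and 109 CPM at 4 weeks and 47.9, 96.4 and 40.97 CPM at 12 weeks, without overlap and with a difference of -1.44 ± 0.394 (SE).

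Among proteases and their inhibitors, Timp2, an inhibitor of matrix metalloproteinases, was at 1040.4, 1200.0 and 585 CPM at 4 weeks and 242, 384 and 381 CPM at 12 weeks, with a difference of -1.49 ± 0.342 (SE). Every 12-week library was lower. Timp3, an inhibitor of aggrecanases, overlapped at 2637, 2388 and 1109.8 CPM at 4 weeks and 1553, 2006 and 1241 CPM at 12 weeks. Mmp9, also abundant, overlapped at 378, 804 and 1901 CPM at 4 weeks and 1843, 1284 and 1864 CPM at 12 weeks. Its difference of 0.69 was the highest of the list. The list's median was -0.35. It was -0.25 with the neutrophil and erythroid covariate, -0.46 with the muscle one and -0.077 with the fibroblast and synovium one. Mmp3, or stromelysin, overlapped at 39.003, 53.6 and 14.6 CPM at 4 weeks and 7.82, 18.9 and 14.1 CPM at 12 weeks, replicate 3 of the 4-week group lying among the 12-week values. Of the 27 genes of the list, 4 were below in every library and 1 above, against 12.0% and 14.9% of all genes, and Adamts16, a low metalloproteinase gene, was at 2.72, 2.45 and 0.505 CPM at 4 weeks and 0.927, 0.402 and 0.573 CPM at 12 weeks. Ptgs2, the inducible cyclooxygenase, overlapped, at 12.01, 9.85 and 6.64 CPM at 4 weeks and 7.48, 7.62 and 8.896 CPM at 12 weeks. Aspn, which encodes asporin, was at 151, 179 and 35.9 CPM at 4 weeks and 30.9, 27.7 and 57.1 CPM at 12 weeks, and Lrrc15, a membrane protein of fibroblasts and damaged cartilage, at 2.88, 2.48 and 1.33 CPM at 4 weeks and 0.364, 0.872 and 2.48 CPM at 12 weeks. For all 4 of the genes Mmp3, Adamts16, Aspn and Lrrc15 the groups overlapped. Lrrc17, a secreted leucine-rich repeat protein, did not overlap, at 17.1, 17.02 and 5.15 CPM at 4 weeks and 3.15, 2.64 and 3.398 CPM at 12 weeks, with a difference of -2.10 ± 0.468 (SE).

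The growth factor pathways held more separated genes below than above at 12 weeks. Of 46 WNT pathway genes, 14 were below in every library, against 12.0% of all genes, and 1 above, against 14.9%. 39 had a log2 difference below 0, and the median was -0.65. In the fit of all 12 libraries, 7 were called lower, against 3.33% of all genes, and 0 higher. The median was -0.17 with the neutrophil and erythroid covariate, and without replicate 3 of the 4-week group edgeR called 17 of 47 lower, against 8.37% of all genes. In this and the other lists, members other than the 3 most abundant were chosen for naming after their values were seen.

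Rspo2, the secreted R-spondin that raises the number of WNT receptors at the cell surface, was at 12.3, 15.2 and 9.16 CPM at 4 weeks and 2.62, 1.57 and 2.83 CPM at 12 weeks, a difference of -2.39 ± 0.322 (SE) with an adjusted p of 0.0645 in edgeR and 0.00475 in the fit of all 12 libraries. The ligand gene Wnt4 was at 7.06, 3.301 and 3.03 CPM at 4 weeks and 1.16, 1.096 and 1.45 CPM at 12 weeks. Wnt10b, another ligand and the 1 member that was higher in every 12-week library, was at 0.647, 0.854 and 0.239 CPM at 4 weeks and 1.29, 2.88 and 1.37 CPM at 12 weeks. Of the receptors, Fzd8 was at 87.7, 48.3 and 11.7 CPM at 4 weeks and 3.78, 7.58 and 4.696 CPM at 12 weeks, Fzd4 differed by -1.15, the co-receptor Lrp6 by -0.67 and the receptor kinase Ror1 by -1.81. Fzd8 varied widely among the 4-week libraries, with replicate 3 the lowest, yet the groups did not overlap. Axin1, a scaffold of the complex that destroys beta-catenin, differed by -1.66, and Tcf7, a transcription factor and target of the pathway, by -1.17. The secreted inhibitors of WNT that chondrocytes make in quantity overlapped, Wif1 at 2692, 2044 and 1232 CPM at 4 weeks and 1129, 1782 and 774 CPM at 12 weeks and Frzb at 507, 354 and 199 CPM at 4 weeks and 170.4, 267 and 111 CPM at 12 weeks. Ctnnb1, which encodes beta-catenin, was at 364, 481 and 476 CPM at 4 weeks and 426, 377 and 340.5 CPM at 12 weeks, also with overlap.

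In the IGF axis, 6 of 19 genes were below in every library and 1 above, against 12.0% and 14.9% of all genes. The ligand Igf1 was at 43.3, 61.98 and 39.7 CPM at 4 weeks and 25.6, 21.7 and 32.4 CPM at 12 weeks, and Igf2, an imprinted fetal growth factor, at 1.94, 0.996 and 0.956 CPM at 4 weeks and 0.331, 0.492 and 0.496 CPM at 12 weeks. Both were lower in every 12-week library, with log2 differences of -0.86 and -1.55. Of the binding proteins, Igfbp7, the most abundant, was at 1033, 889 and 468 CPM at 4 weeks and 150.5, 311 and 213 CPM at 12 weeks, with a difference of -1.83 ± 0.396 (SE), and so was lower at 12 weeks along with Igfbp3. Igfbp4, at 242, 359 and 462 CPM at 4 weeks and 430.1, 429.6 and 451 CPM at 12 weeks, and Igfbp5, at 309.9, 719.9 and 203 CPM at 4 weeks and 312, 144 and 185 CPM at 12 weeks, overlapped. Among imprinted growth genes, which as a group decline in many organs after birth, 6 of 13 were below in every library and 0 above, against 12.0% and 14.9% of all genes. Gnas, the stimulatory G protein subunit, was at 1138, 1037 and 823 CPM at 4 weeks and 345, 529 and 489 CPM at 12 weeks, and Grb10, an adaptor that restrains insulin and IGF receptor signalling, at 56.6, 63.7 and 43.4 CPM at 4 weeks and 40.8, 38.03 and 25.9 CPM at 12 weeks.

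The TGF-beta and BMP list had 10 of 50 genes below in every library and 1 above, against 12.0% and 14.9% of all genes, with 7 called lower in the fit of all 12 libraries, against 3.33%. Its median was -0.29, and 0.0502 with the neutrophil and erythroid covariate. That median was -0.19 without replicate 2 of the 4-week group and -0.51 without replicate 3 of that group. Without replicate 3 of the 4-week group edgeR called 15 of 50 lower, against 8.37% of all genes. The ligand Bmp6 was at 45.1, 35.7 and 20.8 CPM at 4 weeks and 5.46, 12.2 and 7.03 CPM at 12 weeks, with a difference of -2.04 ± 0.399 (SE). Gdf6, a ligand needed for joint formation, differed by -2.85. Bmpr1a, the type I receptor that articular chondrocytes need, was at 94.8, 90.01 and 51.6 CPM at 4 weeks and 28.6, 37.3 and 29.6 CPM at 12 weeks, with a difference of -1.31 ± 0.257 (SE). Of the inhibitors, Fst, or follistatin, which traps activins, was at 12.5, 11.8 and 7.22 CPM at 4 weeks and 2.35, 2.59 and 4.09 CPM at 12 weeks, and Grem1, which traps BMPs, differed by -1.57. Smad4, the shared signal transducer, differed by -1.70, and Smad6, an inhibitory Smad, by -1.32, both without overlap. The 3 most abundant genes of the list, Id3, Tgfbr3 and Ltbp3, overlapped, with differences of -0.18, -0.40 and -0.27.

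In the FGF list, 7 of 25 genes were below in every library and 1 above, against 12.0% and 14.9% of all genes, with 5 called lower in the fit of all 12 libraries, against 3.33%. The median of the list was -0.29, and 0.0321 with the neutrophil and erythroid covariate. It was -0.18 without replicate 1 of the 4-week group and -0.49 without replicate 3 of that group. Fgf18, a ligand known to stimulate cartilage growth, was at 10.6, 8.88 and 2.15 CPM at 4 weeks and 0.629, 1.45 and 0.649 CPM at 12 weeks. The decoy receptor Fgfrl1 differed by -1.86, the proteoglycan Sdc2 by -1.39 and the intracellular inhibitor Spred1 by -2.20. Sdc3, or syndecan 3, which carries heparan sulfate chains that present FGFs, was at 391, 422 and 241 CPM at 4 weeks and 108, 169 and 139 CPM at 12 weeks, a difference of -1.34 ± 0.278 (SE). All 5 had separated groups. Sdc4 and Fgfr1, the most abundant genes of the list, overlapped, with differences of -0.0394 and -0.16.

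The clock list had a median of -0.67, which was 0.13 with the neutrophil and erythroid covariate and 0.40 with the fibroblast and synovium one. It was -0.41 without replicate 1 of the 4-week group and -0.99 without replicate 3 of that group. Bhlhe40 was at 350.4, 395 and 143 CPM at 4 weeks and 165, 188 and 145 CPM at 12 weeks, Nr1d1, which encodes REV-ERB alpha, at 346, 310.2 and 118 CPM at 4 weeks and 128, 209 and 125 CPM at 12 weeks, and Tef at 280.4, 212 and 73.6 CPM at 4 weeks and 87.4, 102 and 145 CPM at 12 weeks. In these 3 genes replicate 3 of the 4-week group was below every 12-week library, and the groups overlapped. 1 of 20 clock genes was below in every library and 1 above, against 12.0% and 14.9% of all genes. Without that library, edgeR called 9 of 20 lower, against 8.37% of all genes. Nr1d1 was at 0.27 and Tef at 0.41 with the neutrophil and erythroid covariate.

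Among immediate early genes, Myc, the growth-promoting transcription factor, was at 27.97, 43.9 and 60.9 CPM at 4 weeks and 94.6, 87.5 and 93.2 CPM at 12 weeks, higher in every 12-week library. Klf2, a Krüppel-like factor, was at 72.1, 83.8 and 65.5 CPM at 4 weeks and 21.9, 37.1 and 33.7 CPM at 12 weeks, lower in every one. Their log2 differences were 1.05 ± 0.273 (SE) and -1.25 ± 0.223 (SE). The 3 most abundant genes of the list, Ccn2, Dusp1 and Ccn1, overlapped, with differences of 0.14, 0.38 and -0.52. Of the 28 genes, 3 were above in every library and 2 below, against 14.9% and 12.0% of all genes. The list's median was 0.00366, and -0.23 to 0.15 when 1 library was left out. It was 0.59 with the neutrophil and erythroid covariate and 0.34 with the fibroblast and synovium one.

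**Figure D4:**
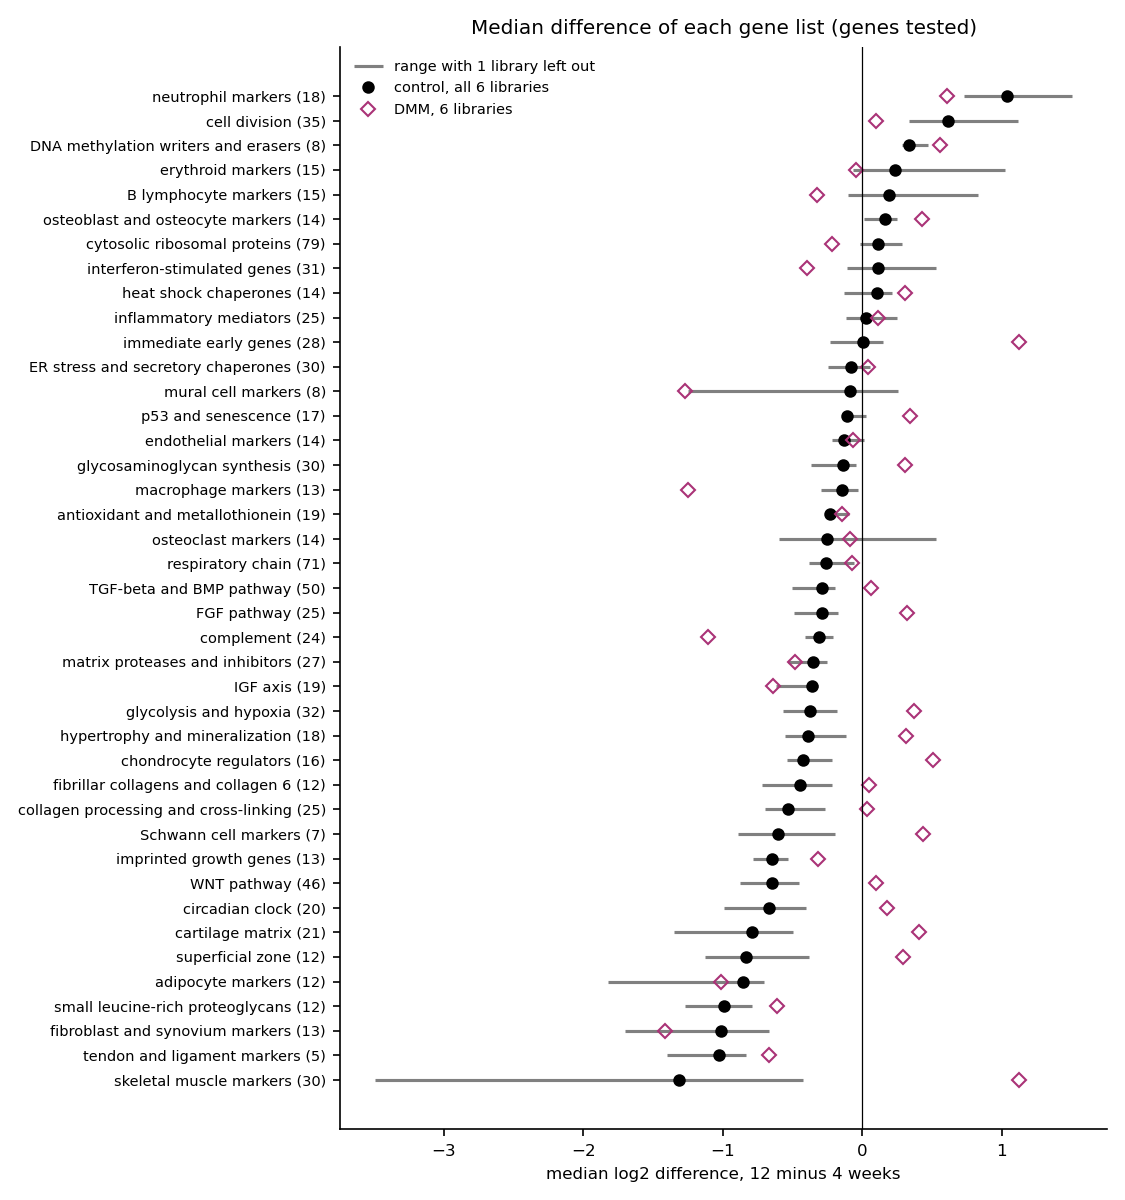
Median log2 difference between 12 and 4 weeks for each gene list, with the number of genes tested in brackets, as black dots for the 6 control libraries and open diamonds for the 6 DMM libraries, and a grey line for the range of the control median when 1 library at a time is left out. Neutrophil markers have the highest control median (1.04) and skeletal muscle markers the lowest (-1.31) and widest range.

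Neutrophil genes had the highest median of the lists. All 18 markers had a log2 difference above 0, with a median of 1.04, and 7 were above in every library, against 14.9% of all genes. Elane, which encodes neutrophil elastase, was at 521, 693 and 1105 CPM at 4 weeks and 2059, 1518 and 1634 CPM at 12 weeks, and Mpo, the myeloperoxidase, at 1236, 2039.6 and 3204 CPM at 4 weeks and 6669.8, 4614 and 5547 CPM at 12 weeks. Both are granule proteins made by precursors in the marrow, and for both the groups did not overlap. Cebpe, the transcription factor of late granulocyte development, was at 18.4, 31.8 and 50.98 CPM at 4 weeks and 106, 78.3 and 81.4 CPM at 12 weeks, with a difference of 1.39 ± 0.3601 (SE), and Fcnb, or ficolin B, at 135, 200.5 and 273 CPM at 4 weeks and 599, 360.2 and 420.2 CPM at 12 weeks. S100a8 and Ngp, the most abundant of the list, overlapped, S100a8 at 2165, 3811 and 7328 CPM at 4 weeks and 10499, 6043 and 9281 CPM at 12 weeks and Ngp at 3382, 5254 and 8762 CPM at 4 weeks and 15419, 8594 and 12351 CPM at 12 weeks, because replicate 3 of the 4-week group reached the level of replicate 2 of the 12-week group. None of the 18 markers was at 0 counts in any library. Their summed level was 14495, 24934 and 42987 CPM at 4 weeks and 69168, 40856 and 58824 CPM at 12 weeks. Without replicate 3 of the 4-week group, edgeR called 15 of 18 higher, against 9.03% of all genes, and the median was 1.504. The median was 0.73 without replicate 1 of that group, 0.63 with the muscle covariate and 0.45 with the fibroblast and synovium one. Whether there were more cells of this type or more RNA in each of them cannot be told apart in bulk RNA, which holds for every gene group here.

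Genes of cell division were also higher at 12 weeks by their values, with most groups overlapping. All 35 had a log2 difference above 0, with a median of 0.62, and 8 were above in every library, against 14.9% of all genes. With the neutrophil and erythroid covariate the median was -0.0637, and with the fibroblast and synovium covariate -0.0126, both below 0, and Mki67 was at -0.12 in the former. Leaving out 1 library gave medians from 0.33, without replicate 1 of the 4-week group, to 1.12, without replicate 3 of that group. Plk1, a mitotic kinase, was at 30.3, 52.6 and 94.9 CPM at 4 weeks and 155, 128 and 125 CPM at 12 weeks, with a difference of 1.20 ± 0.392 (SE). Cdc20, the activator of the anaphase-promoting complex, was at 36.996, 59.4 and 99.7 CPM at 4 weeks and 163, 132 and 143 CPM at 12 weeks, with a difference of 1.16 ± 0.346 (SE). Foxm1, the transcription factor of the G2 and M phases, was at 11.04, 23.1 and 39.8 CPM at 4 weeks and 78.6, 52.03 and 61.97 CPM at 12 weeks, and the mitotic kinase gene Aurkb at 27.7, 55.3 and 95.99 CPM at 4 weeks and 153, 110.1 and 136 CPM at 12 weeks. In these genes every 12-week library was higher. Mcm2, a subunit of the replicative helicase, and Ube2c, the ubiquitin-conjugating enzyme of mitosis, were at 75.2, 135 and 239.6 CPM at 4 weeks and 291, 244 and 254 CPM at 12 weeks and 56.4, 79.3 and 185 CPM at 4 weeks and 231, 190.4 and 201 CPM at 12 weeks respectively. Mki67, the proliferation marker, overlapped at 56.1, 96.9 and 219 CPM at 4 weeks and 249, 160.3 and 209 CPM at 12 weeks, as did Rrm2, the ribonucleotide reductase subunit, at 199, 278 and 570.5 CPM at 4 weeks and 605, 511 and 533 CPM at 12 weeks.

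The summed level of the division genes was 2110.5, 3185 and 5738 CPM at 4 weeks and 6518, 5063 and 5581 CPM at 12 weeks. As for the neutrophil genes, replicate 1 of the 4-week group was the lowest library and replicate 1 of the 12-week group the highest. The erythroid sum was 10882, 14608 and 31756 CPM at 4 weeks and 16879.8, 19118 and 23368 CPM at 12 weeks, highest in replicate 3 of the 4-week group. No erythroid gene was above or below in every library, against 14.9% and 12.0% of all genes. Hbb-bs, an adult beta-globin gene, was at 3616, 5023 and 11298 CPM at 4 weeks and 5127, 5874 and 7192 CPM at 12 weeks. The alpha-globin genes Hba-a1 and Hba-a2 had nearly the same level in every library and share reads, so their levels are uncertain. Without replicate 3 of the 4-week group, edgeR called 28 of 35 division genes and 9 of 15 erythroid genes higher, against 9.03% of all genes, and 8 of 15 B lymphocyte markers, whose median went from 0.19 to 0.83.

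**Figure D5:**
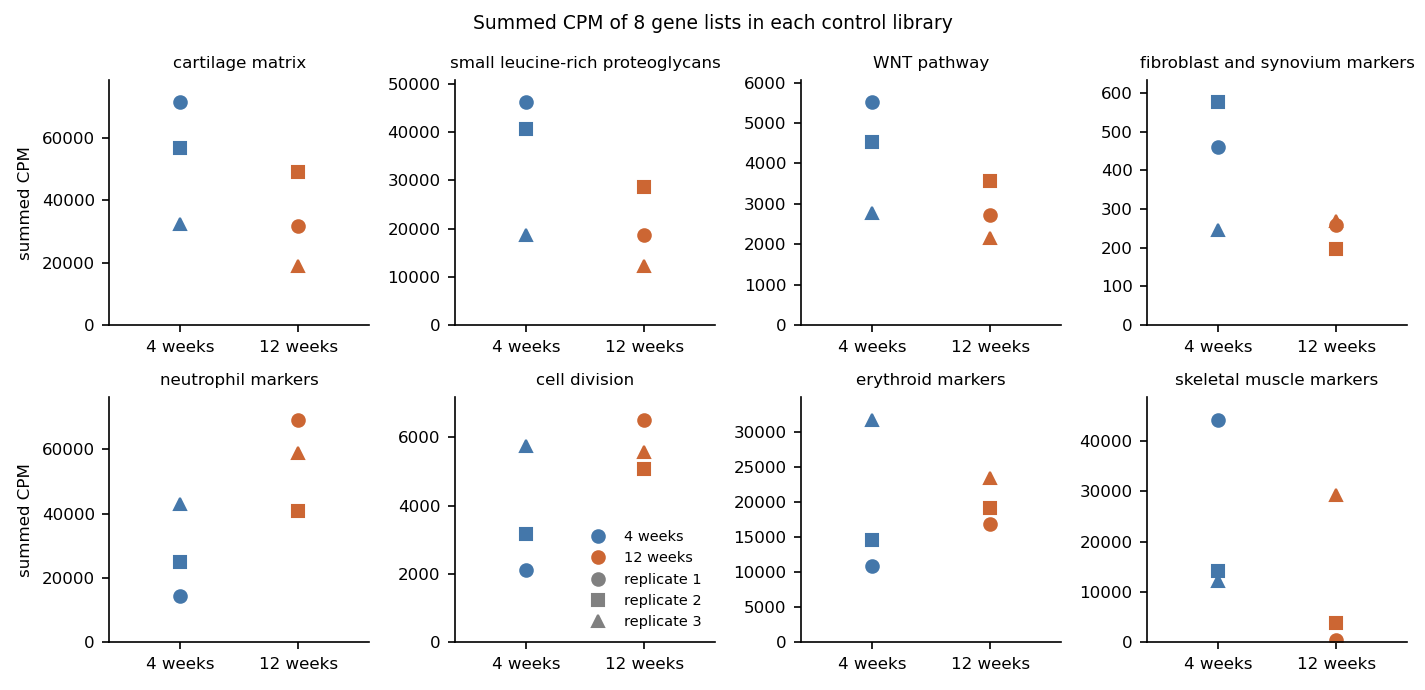
Summed CPM of 8 gene lists in each control library, blue for 4 weeks and orange for 12 weeks, with the shape giving the replicate number and each vertical axis starting at 0. Replicate 3 of the 4-week group lies with the 12-week libraries for cartilage matrix, small leucine-rich proteoglycan, WNT and cell division genes, and above all of them for erythroid genes.

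The promoters of the division genes were searched for the CCAAT box, bound by NF-Y, and for TTTGAA, the element of cell cycle genes known as CHR, on both strands in the 250 bases before and the 50 bases after the transcription start (RefSeq, GRCm38.p6). CCAAT was found in 24 of 28 (85.7%) of the division genes with a promoter in the reference and in 42.4% of all 12003 tested genes with one. Its share in the other lists ran from 12.5% for complement genes to 100% (4 of 4) for Schwann cell markers. It was 81.5% for endoplasmic reticulum stress genes and 76.5% for clock genes. TTTGAA was found in 15 of 28 (53.6%) against 14.9%, and both together in 15 of 28 (53.6%) against 7.09%. Of the division genes with separated groups, Plk1, Cdc20, Ube2c and Mcm2 held both, and their promoters are shown 5′ to 3′ on the strand of the gene, with both motifs, on either strand, in capitals.
Plk1 (chr7:122159185-122159484, plus strand): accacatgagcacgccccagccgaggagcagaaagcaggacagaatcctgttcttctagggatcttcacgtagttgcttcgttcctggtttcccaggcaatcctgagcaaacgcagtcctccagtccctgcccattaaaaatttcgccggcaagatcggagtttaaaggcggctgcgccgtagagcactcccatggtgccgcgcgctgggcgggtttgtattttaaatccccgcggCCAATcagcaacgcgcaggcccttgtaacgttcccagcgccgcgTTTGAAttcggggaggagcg
Cdc20 (chr4:118437294-118437593, minus strand): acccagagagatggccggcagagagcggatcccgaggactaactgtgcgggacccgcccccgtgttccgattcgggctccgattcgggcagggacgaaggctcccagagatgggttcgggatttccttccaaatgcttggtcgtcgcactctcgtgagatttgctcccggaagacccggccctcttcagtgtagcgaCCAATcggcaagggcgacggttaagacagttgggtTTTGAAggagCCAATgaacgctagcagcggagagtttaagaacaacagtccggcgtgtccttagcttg
Ube2c (chr2:164769679-164769978, plus strand): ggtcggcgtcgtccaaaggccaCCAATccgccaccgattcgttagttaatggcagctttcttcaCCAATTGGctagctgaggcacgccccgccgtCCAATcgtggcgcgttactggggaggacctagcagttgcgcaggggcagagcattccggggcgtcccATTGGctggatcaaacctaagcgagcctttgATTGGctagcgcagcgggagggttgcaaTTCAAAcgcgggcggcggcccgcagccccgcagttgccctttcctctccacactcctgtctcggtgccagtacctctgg
Mcm2 (chr6:88898731-88899030, minus strand): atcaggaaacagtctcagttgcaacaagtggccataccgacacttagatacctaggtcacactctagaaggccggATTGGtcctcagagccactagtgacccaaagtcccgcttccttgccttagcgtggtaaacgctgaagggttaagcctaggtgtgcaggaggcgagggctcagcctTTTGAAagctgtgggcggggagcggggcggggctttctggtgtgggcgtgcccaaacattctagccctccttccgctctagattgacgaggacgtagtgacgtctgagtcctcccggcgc
In Plk1 and Cdc20 the TTTGAA lies downstream of a CCAAT box on the gene's own strand. Ube2c holds 6 CCAAT boxes, counting both strands, and a pair of them on opposite strands overlap. These are matches of letters and not evidence of binding.

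For the neutrophil genes, the spaced half-site pair TTNNGCAA of the C/EBP family was found in 7 of 17 (41.2%) of the promoters and in 10.5% of those of all tested genes. Its share in the other lists ran from 0% to 44.4%, the latter for adipocyte markers (4 of 9). The stricter form TTNCGCAA was found in 0 of 17 and in 1.37% of all. Among the members without overlap, Fcnb was the one with a match, and its promoter is shown with its 2 matches in capitals.
Fcnb (chr2:28084829-28085128, minus strand): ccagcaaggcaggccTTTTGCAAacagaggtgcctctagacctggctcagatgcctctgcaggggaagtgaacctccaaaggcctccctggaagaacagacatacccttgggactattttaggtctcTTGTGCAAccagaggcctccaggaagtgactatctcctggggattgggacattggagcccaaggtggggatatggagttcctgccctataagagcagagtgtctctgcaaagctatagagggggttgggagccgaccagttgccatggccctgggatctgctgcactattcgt
The promoters of Elane and Mpo held none. The motifs were picked from 17 that were searched across the lists, after their counts were seen.

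Most fibroblast genes had lower values at 12 weeks. Of the 13 fibroblast and synovium markers, 6 were below in every library and 1, Pi16, above, against 12.0% and 14.9% of all genes, with a median of -1.01. Without replicate 3 of the 4-week group edgeR called 8 of 13 lower, against 8.37% of all genes. The median was -0.67 without replicate 2 of the 4-week group, -1.70 without replicate 3 of the 12-week group and -0.65 with the neutrophil and erythroid covariate. Dpt, or dermatopontin, was at 71.8, 74.9 and 19.1 CPM at 4 weeks and 3.44, 3.801 and 4.66 CPM at 12 weeks, a difference of -3.80 ± 0.538 (SE). Cd34, a marker of fibroblasts and vessels, was at 115, 165 and 69.3 CPM at 4 weeks and 60.4, 46.5 and 66.3 CPM at 12 weeks, and Pdgfra, a receptor that marks fibroblasts, at 57.5, 92.3 and 48.8 CPM at 4 weeks and 44.04, 26.7 and 36.005 CPM at 12 weeks. Mfap5 and Clec3b, 2 secreted fibroblast products, differed by -3.01 and -2.84. In the fit of all 12 libraries, 5 were called lower and 1 higher (3.33% and 2.44% of all genes). The summed level of the list was 460.4, 575 and 247 CPM at 4 weeks and 258, 196 and 269.8 CPM at 12 weeks, so replicate 3 of the 4-week group was again among the 12-week libraries. The 5 tendon and ligament markers had a median of -1.03, which was -0.0317 with the neutrophil and erythroid covariate and 0.39 with the fibroblast and synovium one, and 0 were below or above in every library, against 12.0% and 14.9% of all genes. Of adipocyte markers 3 of 12 were below in every library and 1, Dgat2, above, against 12.0% and 14.9% of all genes, and Cfd, or adipsin, which overlapped, was at 304, 324 and 125 CPM at 4 weeks and 44.6, 38.5 and 126 CPM at 12 weeks. Fabp4, the adipocyte fatty acid-binding protein, was at 110.2, 116 and 106 CPM at 4 weeks and 51.6, 70.03 and 105 CPM at 12 weeks.

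Skeletal muscle genes varied widely between replicates, and their median had the widest leave-one-out range of the lists. Acta1, the actin of skeletal muscle, was at 6762, 1947 and 1955 CPM at 4 weeks and 32.8, 736 and 5487 CPM at 12 weeks, and Ckm, the muscle creatine kinase, at 5139, 1269 and 973 CPM at 4 weeks and 13.2, 319 and 2719.5 CPM at 12 weeks. The groups overlapped, because replicate 3 of the 12-week group was as high as the 4-week libraries while replicate 1 of that group held almost none. The summed level of the 30 markers was 44216, 14168 and 12085 CPM at 4 weeks and 541, 3933 and 29292 CPM at 12 weeks. The median was -1.31 with all libraries and -3.49 without replicate 3 of the 12-week group, -0.42 without replicate 1 of the 4-week group and -0.75 without replicate 1 of the 12-week group. It was -0.24 with the neutrophil and erythroid covariate and 0.48 with the fibroblast and synovium one.

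Tnnc1 and Myh7, both chosen for their p or their near-absence at 12 weeks, did not follow Acta1 and Ckm. Tnnc1, the troponin C of slow and cardiac muscle, was at 83.6, 8.42 and 10.5 CPM at 4 weeks and 0.629, 0.492 and 0.496 CPM at 12 weeks, without overlap. Myh7, the slow myosin heavy chain, had 3504, 315 and 239 counts in the 4-week libraries and 0, 1 and 0 in the 12-week libraries. Replicate 1 supplied most of the 4-week counts. Replicate 3 of the 12-week group was thus high for Acta1 and Ckm and near 0 for Tnnc1 and Myh7. Of the 30 muscle markers, 8 were below in every library and 0 above, against 12.0% and 14.9% of all genes. With the mean muscle level as a covariate, 1175 genes had an unadjusted p under 0.05, against 3269 without it. The same count was 2404 with the neutrophil and erythroid level as the covariate and 678 with the fibroblast and synovium level, which was added after the data were seen. The muscle and the fibroblast and synovium markers also differed between the times, with list medians of -1.31 and -1.01. With 6 libraries, these counts therefore cannot tell the effect of a covariate from that of the week.

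The interaction of week and limb tests whether the difference between 12 and 4 weeks in control cartilage differs from that in DMM cartilage. Both limbs came from the same mice, and this fit, like the fit of all 12 libraries used above, treats them as independent. edgeR called 0 of 15961 genes (percent called: 0), DESeq2 called 13, and 1898 genes (11.9%) had an unadjusted p under 0.05. That last count, on which those of the lists rest, was 3837 without replicate 3 of the 4-week control group and 3769 without replicate 1 of the 4-week DMM group. It was 927 and 918 without replicate 1 of the 4-week or 12-week control group, and 996 and 921 without replicate 2 or 3 of the 4-week DMM group. With the replicate number within each week as a block, edgeR again called 0 genes for the interaction. Of the 21 cartilage matrix genes, 8 had an unadjusted p under 0.05 for the interaction, and the list's median was -0.79 in control and 0.41 in DMM cartilage. Sox9 was at 137, 79.5 and 67.1 CPM at 4 weeks and 327, 496 and 377 CPM at 12 weeks in the DMM libraries, against overlapping control groups, an interaction of 1.78 ± 0.587 (SE). Comp was at 3294, 1938 and 1529 CPM at 4 weeks and 3719, 4889 and 3203 CPM at 12 weeks in the DMM libraries, an interaction of 1.58 ± 0.599 (SE). Macrophage markers had the largest share of the lists, 8 of 13, with medians of -0.14 in control and -1.25 in DMM cartilage. Immediate early genes had 12 of 28 at that level and glycolysis and hypoxia genes 13 of 32, with control medians of 0.00366 and -0.37 and DMM medians of 1.12 and 0.37. With the neutrophil and erythroid covariate these control medians were 0.59 and 0.11. They were 0.34 and 0.18 with the fibroblast and synovium covariate. Cell division and neutrophil genes had 0 of 35 and 0 of 18.

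The genes with the smallest p for the interaction were Tnnc1, Cntfr, Ranbp6, Ppp1r3c and BC018473, all with an adjusted p of 0.415. Ppp1r3c, a glycogen-targeting subunit of protein phosphatase 1, was at 128, 119 and 79.7 CPM at 4 weeks and 39.8, 52.7 and 45.6 CPM at 12 weeks in control cartilage, without overlap, and at 62.6, 73.4 and 66.4 CPM at 4 weeks and 75.5, 67.1 and 67.3 CPM at 12 weeks in DMM cartilage, an interaction of 1.28 ± 0.263 (SE). Cntfr, the ciliary neurotrophic factor receptor, was at 27.5, 8.88 and 2.098 CPM at 4 weeks and 1.36, 2.35 and 2.06 CPM at 12 weeks in control cartilage and at 2.49, 1.86 and 1.31 CPM at 4 weeks and 16.4, 11.2 and 6.08 CPM at 12 weeks in DMM cartilage, so that it was lower at 12 weeks on average in control cartilage and higher in every 12-week DMM library. Its control groups overlapped. Ranbp6, an importin-like protein, overlapped in control cartilage at 27.2, 33.8 and 33.9 CPM at 4 weeks and 30.5, 23.03 and 28.3 CPM at 12 weeks, and was at 36.5, 46.1 and 45.2 CPM at 4 weeks and 17.7, 15.4 and 17.6 CPM at 12 weeks in DMM cartilage, where every 12-week library was lower. BC018473 had 177, 160 and 89 counts in the 4-week control libraries and 0, 0 and 2 in the 12-week ones.

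Uhrf1, the partner of the maintenance DNA methyltransferase, was at 31.9, 55.7 and 77.8 CPM at 4 weeks and 135, 94.7 and 114 CPM at 12 weeks, higher in every 12-week library. Dnmt1 and Dnmt3a, also among the 3 most abundant of the DNA methylation list, overlapped, with differences of 0.74 and 0.25. Of the 8 genes of that list, 3 were above in every library and 0 below, against 14.9% and 12.0% of all genes. Its median was 0.34, and 0.11 with the neutrophil and erythroid covariate. Sesn2 and Gdf15, both targets of the p53 and stress responses, differed by 0.89 and 1.34, and 4 of 17 genes of the p53 and senescence list, Lmnb1 among them, were above in every library and 1 below, against 14.9% and 12.0% of all genes. Lmnb1 is counted there only as a member of the list, and whether senescence differed between the times was not tested. The median of that list was -0.11, with 9 genes below 0, and was 0.18 with the neutrophil and erythroid covariate. Leaving out 1 library gave medians from -0.15 to 0.0295, the latter without replicate 1 of the 4-week group. Of the 3 most abundant genes of the list, Ccng1 and Cdkn1a overlapped between the times, with differences of -0.56 and -0.22. The third, Mdm2, was higher in every 12-week library, with a difference of 0.39. Ribosomal protein, respiratory chain, heat shock, endoplasmic reticulum stress, interferon, inflammatory and endothelial lists had medians between -0.26 and 0.11. Leaving out 1 library gave -0.016 to 0.29 for ribosomal protein and -0.38 to -0.0575 for respiratory chain genes. It gave -0.13 to 0.21 for heat shock and -0.24 to 0.0533 for endoplasmic reticulum stress genes. The ranges were -0.12 to 0.25 for inflammatory and -0.22 to 0.0154 for endothelial genes. For interferon genes the range was -0.11 to 0.53, the latter without replicate 3 of the 4-week group. Genes of the highest level per length were S100a8, Cytl1, S100a9, Hbb-bs, Chad and Ngp, from 16636 to 7718 CPM per kilobase of transcript over the 6 libraries.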

How the data were processed

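RNA from control (non-operated left leg) and DMM cartilage was sequenced in 12 libraries, 6 of them control. The labels name a poly(A) TruSeq preparation, whereas the study's methods describe SMART-Seq v4 amplification and Nextera XT, and a full-length amplified library can weight transcripts differently. Reads were trimmed with FLEXBAR, aligned with STAR to mm10 and assigned to RefSeq transcripts with featureCounts. The submitters' processing notes also name CASAVA 2.17. The versions of STAR and featureCounts and the strand setting are not given in the sources used here, so overlapping and antisense genes cannot be told apart. The authors deposited raw counts per RefSeq transcript, without normalization, and the second column of each file was used. Totals per control library were 35284404 to 62737656 counts over all RefSeq rows and 24948353 to 45306726 in the 1 row kept per gene. Counting error is thus small for all but the lowest genes. The 24 bisulfite sequencing files were not used.

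Of 30048 RefSeq rows, 576 had no symbol and were kept under their transcript identifier. For each of 23631 genes, those rows included, the row with the highest mean count was kept. edgeR 4.0.16 in R 4.3.3 was used with filterByExpr, TMM factors and robust quasi-likelihood tests, with Benjamini-Hochberg adjustment over all genes tested and a threshold of 0.05. Groups were taken from the labels. The week by limb interaction was tested over all 12 RNA libraries. Alternatives were DESeq2 1.42.0, limma 3.58.1 with voom weights, other scaling factors and filters, all transcript rows, all 12 libraries in 1 fit, marker levels as covariates, a replicate block and leaving out each library. edgeR without robust estimates, the fibroblast and synovium covariate and the interaction with a replicate block within each week were chosen after seeing the data. The scripts were tested on simulated data.

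The gene groups and lists (41 lists, 952 of 956 entries matched) were chosen with earlier results of these data known. The genes chosen by rule were, first, the 10 with the smallest p in each direction at a mean of at least 10 CPM. They also held the 3 most abundant and defining genes of each list and 6 genes listed by name. The last were the 5 with the smallest interaction p and the 10 with the highest level per length. Not all of these are named in the text, so the named genes are not a neutral sample of the lists. The other genes named from the lists were chosen after their values were seen. Promoters (RefSeq, GRCm38.p6) were searched on both strands for CCAAT (the NF-Y box), TTTGAA (CHR), TTTCGCGC (an E2F site), CACGTG (an E-box), TGACTCA (AP-1), TTNCGCAA (C/EBP), its looser form TTNNGCAA, CATTCCA (TEAD), AGATCAAAG (TCF/LEF), its shorter form CTTTGAT and the longer CTTTGATC, ACAATGG (SOX), the shorter CATTGT (SOX), CANNTG (any E-box), a TATA box, a MEF2 site and a CArG box, 17 motifs in all, of which each form of 1 site overlaps the other, as do CACGTG and CANNTG. Whether replicate numbers pair the libraries was checked by correlating the deviations of same-numbered libraries from their group means, between the control libraries of both weeks and between control and DMM libraries within each week, since the limbs come from the same mice but the labels do not say which pools share animals.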

Additional observations from a re-analysis of the deposited data

How the results depend on the processing

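The number of genes called depended on the tool and on single libraries. DESeq2 called 1912 genes (889 higher, 1023 lower), the fit of all 12 RNA libraries 920 (389 and 531) and the fit without a filter on low counts 42 (5 and 37), against 0 in edgeR. Leaving out 1 library gave 0 to 2758 calls, 0 to 1432 higher and 0 to 1326 lower, with the largest counts without replicate 3 of the 4-week group and 2 calls, both lower, without replicate 1 of that group. For the interaction of week and limb, DESeq2 called 13 genes, and leaving out 1 library gave 0 to 2. The cause of these differences was not tested. The other scalings, the filter of at least 10 counts, limma, the replicate block, the marker covariates, the stricter threshold and all transcript rows gave 0 calls. Mice killed at the 2 times are different animals, so the numbers cannot pair samples across weeks. Same-numbered control libraries of both weeks had correlations of -0.452, -0.00854 and -0.0479, and the replicate block called 0 genes. Between control and DMM libraries the correlations were 0.363, -0.322 and 0.0813 at 4 weeks and -0.538, 0.266 and -0.255 at 12 weeks for replicates 1, 2 and 3. With 3 libraries in a group, such values can neither show nor exclude that numbers shared between limbs pair the libraries. A block of these numbers within each week called 0 genes for the interaction, with 2637 at an unadjusted p under 0.05 against 1898 without it.

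Single genes were recomputed where the text names them, so the genes given here are not all that changed sign. With the neutrophil and erythroid level as a covariate, the log2 differences of named genes that changed sign were Comp 0.25, Cilp 0.56, Prg4 0.66, Cytl1 0.11, Col10a1 0.39, Spp1 0.0593, Dcn 0.19, Timp3 0.44, Igfbp4 -0.11, Wif1 0.0402, Nr1d1 0.27, Tef 0.41, S100a9 -0.00524, Acta1 0.20, Ckm 0.18, Ptgs2 0.21, Mki67 -0.12, Cdkn1a 0.20, Hba-a1 -0.48 and Hba-a2 -0.48. With the muscle level as a covariate they were Prg4 0.10, Col10a1 0.16, Acta1 1.70, Ckm 1.49, Lrrc15 0.37, Ptgs2 0.0379 and Ccng1 0.0478. Acta1 and Ckm are part of the muscle covariate, and S100a9, Hba-a1 and Hba-a2 of the neutrophil and erythroid one. For these genes, the values in the fit with their own covariate therefore show nothing about the week. Hbb-bs was at 0.0284 with the replicate block and 0.0509 in limma. Leaving out 1 library gave ranges of -0.25 to 0.35 for Acan, -0.37 to 0.0809 for Col11a1, -0.30 to 0.55 for Sox9, -0.65 to 0.24 for Prg4, -3.21 to 0.12 for Acta1, -0.64 to 0.0604 for Cdkn1a, -0.43 to 0.49 for Hbb-bs and -0.17 to 0.61 for Hba-a1 and Hba-a2 alike.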
